A study of Mus musculus with 11 samples.

Results

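Day 1 of differentiation was compared with day 0 in wild type E14 cells, an embryonic stem cell line of mouse strain 129 grown as a monolayer. Day 0 cells are labelled as the embryonic stem cells themselves, and day 1 cells had spent 1 day in differentiation conditions with retinoic acid (RA) and SAG, a small molecule agonist of the hedgehog transducer Smoothened. The comparison took the 2 libraries labelled day 0 and the 2 labelled day 1, of 11 polyadenylated RNA libraries in all. The other 7 are 2 each of days 2 and 3 and 3 of Prominin-1 sorted progenitors of day 3.5. A second name given to each library of days 0 to 3 reads Nondiff, against the titles and cell status, which were followed here. All genes entered, and 16810 of 38197 in the table had enough counts to be tested. The series as a whole follows these cells toward ventral hindbrain neurons. Day 1 cells received RA, SAG and the change of conditions together, so their effects cannot be told apart. The labels give the same treatment text to all libraries and do not state that the 2 libraries of one day were grown apart, and a p-value here reflects no more than how these samples spread.

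RA enters the nucleus with its binding proteins and is sensed there by RAR and RXR receptors, which sit on paired DNA motifs near their target genes and switch from repression to activation when RA binds. Its targets include the CYP26 enzymes that destroy RA, its own receptor RAR-beta and the 3′ ends of the Hox clusters, and it patterns the hindbrain of the embryo. Mouse stem cells hold their state with a network of transcription factors around POU5F1, SOX2 and NANOG, fed by LIF through STAT3 and opposed by FGF signaling through ERK. Hedgehog signaling relieves PTCH1's block on Smoothened and acts through GLI factors, with PTCH1, HHIP and GLI1 as its feedback targets.

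Promoter sequences are shown for 5 genes whose levels moved at day 1 and whose 250 bases before the start site hold a motif searched for. The letters are RefSeq sequence of build GRCm38.p6, written 5′ to 3′ in the direction of the gene, with the motif in capitals. DR5 and DR2 are direct repeats of the RA receptor's hexamer with 5 or 2 bases between the repeats. Rarb (chr14:16575477-16575726, minus strand) and Cyp26a1 (chr19:37697558-37697807, plus strand) hold a DR5, and Slc25a21 (chr12:57197473-57197722, minus strand) holds a DR2. Nanog (chr6:122707239-122707488, plus strand) holds an Oct-Sox element, the joined sites of POU5F1 and SOX2, and Hmgcs1 (chr13:119690101-119690350, plus strand), the cytosolic HMG-CoA synthase of cholesterol synthesis, holds the sterol element TCACNCCAC.
Rarb: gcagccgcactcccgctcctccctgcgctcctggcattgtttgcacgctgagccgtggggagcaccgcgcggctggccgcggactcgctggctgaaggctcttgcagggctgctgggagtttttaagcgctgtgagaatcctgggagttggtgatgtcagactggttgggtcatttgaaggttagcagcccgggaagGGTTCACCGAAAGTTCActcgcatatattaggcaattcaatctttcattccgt
Cyp26a1: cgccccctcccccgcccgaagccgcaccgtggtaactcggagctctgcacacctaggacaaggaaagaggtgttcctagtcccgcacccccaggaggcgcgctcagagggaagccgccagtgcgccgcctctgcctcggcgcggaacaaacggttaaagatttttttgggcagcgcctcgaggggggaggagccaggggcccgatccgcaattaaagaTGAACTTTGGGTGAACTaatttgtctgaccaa
Slc25a21: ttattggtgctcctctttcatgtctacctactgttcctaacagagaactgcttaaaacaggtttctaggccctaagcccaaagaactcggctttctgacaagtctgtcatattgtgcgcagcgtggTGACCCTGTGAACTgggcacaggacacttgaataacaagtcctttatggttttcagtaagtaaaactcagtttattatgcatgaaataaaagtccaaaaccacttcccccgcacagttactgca
Nanog: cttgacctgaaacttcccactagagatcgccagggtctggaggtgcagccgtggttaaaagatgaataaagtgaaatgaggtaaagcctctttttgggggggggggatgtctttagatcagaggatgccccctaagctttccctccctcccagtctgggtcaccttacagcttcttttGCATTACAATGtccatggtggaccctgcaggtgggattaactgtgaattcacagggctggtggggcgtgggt
Hmgcs1: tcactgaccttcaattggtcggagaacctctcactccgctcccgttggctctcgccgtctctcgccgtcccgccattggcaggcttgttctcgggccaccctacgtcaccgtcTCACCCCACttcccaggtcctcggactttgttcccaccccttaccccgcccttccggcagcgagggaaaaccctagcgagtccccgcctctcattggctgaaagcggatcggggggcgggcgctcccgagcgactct
In Rarb the DR5 reads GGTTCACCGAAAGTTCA and lies 53 to 37 bases before the start. In Cyp26a1 it lies 32 to 16 bases before the start on the other strand, where it reads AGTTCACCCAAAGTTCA. The Oct-Sox match of Nanog, 72 to 62 bases before the start, and the DR2 match of Slc25a21, 124 to 111 bases before it, are also on the strand opposite to the gene. The table lists another start for Nanog, downstream of this one, whose window holds the same match. The sterol element of Hmgcs1 lies 137 to 129 bases before the start.

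Such matches are rare. Both strands of all 32851 RefSeq promoters, from 250 bases before to 50 after a start, were searched, and 0.0974% held a DR5, 0.268% a DR2, 0.0609% the Oct-Sox element and 1.24% the sterol element. Motifs were allowed to overlap each other. Of 1472 genes called higher at day 1 that have a promoter in the table, 3 held a DR5, namely Rarb, Cyp26a1 and Prokr2, and of 1021 genes called lower 0 did. A DR2 was held by 4 of the higher (0.272%) and 1 of the lower genes (0.0979%), and the Oct-Sox element by 2 (0.136%) and 1 (0.0979%). Among all tested genes with a promoter, 7 held a DR5 (0.0631%), 11 a DR2 (0.0991%) and 5 the Oct-Sox element (0.0451%). The sterol element was held by 16 of the higher genes (1.09%) and 13 of the lower (1.27%), against 1.48% of the 11097 tested genes with a promoter. A GLI motif, TGGGTGGTC, was found in 0.253% of all promoters and 0.225% of tested genes. It was in 4 of the higher genes (0.272%) and in 4 of the lower (0.392%). Of the cholesterol genes described further on, 16 have a promoter in the table and 1 of these, Hmgcs1, held the sterol element. A promoter was found for 586 of 790 genes looked at here, and a match is a description of letters in this window.

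Total counts of the 4 libraries ran from 26136333 to 30384601. Levels are CPM, counts scaled to the size of the library, with TMM factors over the 8 unsorted libraries, given for library 1 and then library 2 of a day, and a log2 fold change is day 1 minus day 0 from edgeR, with its SE after ±. Levels of days 2 and 3 are the mean ± SD of their 2 libraries. A gene was called where edgeR's Benjamini-Hochberg adjusted p over the 16810 genes was under 0.05. The 2 libraries of a day differed along GC content, in opposite directions on the 2 days. In the decile of genes richest in GC, the median log2 difference of library 1 minus library 2 was 0.76 at day 0 and -0.88 at day 1, and in the decile poorest in GC these medians were -0.37 and 0.40. The median log2 fold change between days lay between -0.04 and 0.18 in every decile, and a correction of each library for its GC trend was tried as an alternative. In bulk RNA, fewer cells of a type and less RNA per cell cannot be told apart.

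The day 0 libraries fit their label by marker genes. Nanog, Pou5f1, Esrrb, Zfp42 and Sox2 summed to 1122 and 1229 CPM at day 0 and to 219 and 263 CPM at day 1, and 5 of the 5 were called lower. Markers of other cells were present at day 0 too. Neuron markers (Dcx, Stmn2, Elavl4) summed to 297 and 333 CPM, of which Stmn2 made up 293 and 327 CPM, and to 76.7 and 67.8 CPM at day 1, with Dcx and Elavl4 called higher and Stmn2 lower. Trophoblast markers summed to 26.3 and 28.9 CPM and then to 26.8 and 33.0 CPM, with 1 of 4 called higher. Extraembryonic endoderm markers summed to 126.4 and 117.9 CPM at day 0 and 94.7 and 82.1 CPM at day 1, with 1 of 7 genes called lower, and collagen and matrix genes of feeder fibroblasts went from 44.0 and 71.5 CPM to 23.7 and 30.1 CPM, with 2 called lower. Mesoderm markers summed to 26.8 and 15.4 CPM at day 0 and to 9.42 and 9.05 CPM at day 1, with Mesp1 at or under 3 counts in every library. Their part in the results below was not tested.

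At day 1, 2015 genes (12% of those tested) were higher and 1498 (8.91%) lower. Changes of at least 2-fold were made by 1458 of the higher and 797 of the lower genes, 13.4% of those tested, and of at least 16-fold by 108 and 57. Leaving out day 0 replicate 2 gave 1301 higher and 879 lower genes, and leaving out day 2 replicate 1 gave 1334 and 983. Leaving out day 1 replicate 1 gave 943 lower genes and leaving out day 2 replicate 2 gave 919. In each of the 3513 called genes (20.9%) the libraries of the 2 days did not overlap, which is also so for 55.5% of all genes tested (28.7% with both day 1 libraries above and 26.8% below). Protein-coding genes had 1854 higher and 1292 lower of 13794, and pseudogenes 18 higher and 71 lower of 1218. Over all genes tested the median log2 fold change was 0.01, and 0.15 with the deposited voom values, which carry no TMM factor. Limma on those values called 2677 genes higher and 1049 lower, which made 71.8% of its calls higher against 57.4% here, and 71.3% were higher on log2(FPKM + 0.1).

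The 12 named genes with the largest rises and a mean of at least 5 CPM at day 1 included Cyp26b1, Stra6, Cyp26a1 and Rarb of RA handling. Genes with no symbol beyond a number for a clone, locus or gene prediction were passed over, among them 1700011H14Rik, called higher with a mean of 0.0597 CPM at day 0 and 19.3 CPM at day 1 and a log2 fold change larger than that of any gene listed here. In order of log2 fold change they were Hoxb6, Chrna3, Cyp26b1, Slc25a21, Zfp703, Stra6, Cldn2, Cyp26a1, Nfix, Rarb, Arg1 and Sfrp5. Slc25a21, a mitochondrial carrier of oxodicarboxylates, stood at 0 and 0.257 CPM at day 0 and 7.30 and 5.62 CPM at day 1 (log2 fold change 5.75 ± 0.69, adjusted p = 0.00107). Chrna3, a nicotinic acetylcholine receptor subunit, was at or under 3 counts in both day 0 libraries and at 11.7 and 8.27 CPM at day 1. Arg1, arginase, went from 1.56 and 1.796 CPM to 46.4 and 50.4 CPM (log2 fold change 4.85 ± 0.40, adjusted p = 0.00019). The tight junction gene Cldn2 rose from 0.305 and 0.214 CPM to 11.7 and 11.2 CPM (log2 fold change 5.42 ± 0.76, adjusted p = 0.00203). Each of the 4 was well above its day 0 libraries in both day 1 libraries. The 12 largest falls by the same rule were Lefty2, Tdgf1-ps1, Tdgf1, Lefty1, Kirrel2, Trim67, Tdh, Foxd3, Nlrc4, Trh, Nphs1 and Bcl3. Tdh, threonine dehydrogenase, on which mouse stem cells depend for one-carbon units, fell from 101 and 126.99 CPM to 1.55 and 2.18 CPM (log2 fold change -5.93 ± 0.44, adjusted p = 0.000135). Trh, which codes for thyrotropin-releasing hormone, had 126.8 and 51.3 CPM at day 0 and 2.09 and 1.62 CPM at day 1 (log2 fold change -5.59 ± 0.53, adjusted p = 0.000334), and its day 0 libraries differed from each other by more than its day 1 libraries did. Nphs1 (chromosome 7, 30458315 to 30487223) and Kirrel2 (chromosome 7, 30447534 to 30457690) are neighbours that code for adhesion proteins able to bind each other. Nphs1 had 27.8 and 30.2 CPM at day 0 and 0.755 and 0.687 CPM at day 1 (log2 fold change -5.32 ± 0.60, adjusted p = 0.000806). Kirrel2 had 15.0 and 13.99 CPM at day 0 and 0 and 0.281 CPM at day 1 (log2 fold change -6.57 ± 0.78, adjusted p = 0.00107). The call of each of the largest rises and falls listed in this paragraph held in every fit without 1 of the 8 libraries that tested it.

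Genes were grouped into 45 lists by function. Each list's counts stand against the 12% higher and 8.91% lower of all genes tested, and a count near these shares is no result about the list. For 22 pairs of a list and a direction the count by edgeR was 0. In these, 12 genes in all had an unadjusted p under 0.05, with at most 3 in one list, and DESeq2 called 4.

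**Figure D1:**
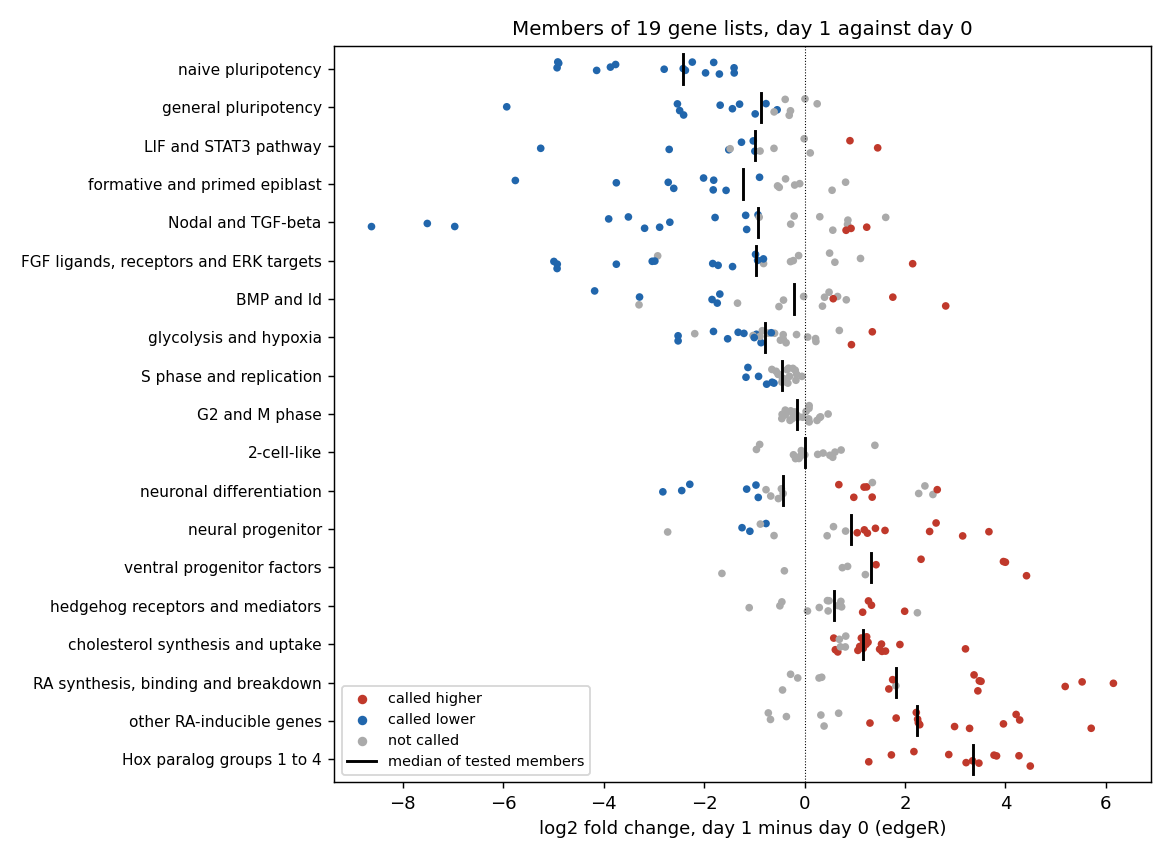
Log2 fold change of each tested member (points) of 19 gene lists, day 1 minus day 0, on the horizontal axis, coloured by call, with the median of each list as a bar. The 15 naive pluripotency genes lie left of 0 and the 11 Hox genes of paralog groups 1 to 4 right of it. The G2 and M phase genes are gray, with a median of -0.15.

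Genes that take up, bind, make and break down RA were higher or not called. Of 15 tested, 9 were higher (12% of all genes were) and 0 lower, with a median log2 fold change of 1.82. The enzymes that oxidize RA rose in both day 1 libraries. Cyp26a1 stood at 5.69 and 6.29 CPM at day 0 and 234 and 203 CPM at day 1 (log2 fold change 5.19 ± 0.31, adjusted p = 6.73e-05). Cyp26b1 had 0.271 and 0.342 CPM at day 0 and 22.2 and 21.5 CPM at day 1 (log2 fold change 6.15 ± 0.59, adjusted p = 0.000371). The third family member, Cyp26c1, was too low to be tested. Cyp26a1 stood at 24.7 ± 7.64 CPM at day 2 and 13.5 ± 4.15 CPM at day 3.

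Genes of retinoid uptake and storage rose too. Stra6 (chromosome 9, 58063788 to 58153996 of GRCm38), the membrane receptor for the carrier that brings retinol, had 2.30 and 1.03 CPM at day 0 and 57.4 and 99.4 CPM at day 1 (log2 fold change 5.53 ± 0.44, adjusted p = 0.000173). Crabp2, which hands RA to its nuclear receptors, had 41.9 and 32.8 CPM at day 0 and 388 and 387 CPM at day 1 (log2 fold change 3.37 ± 0.23, adjusted p = 9.89e-05). Crabp1, which binds RA in the cytoplasm, had 10.5 and 12.8 CPM at day 0 and 11.5 and 16.9 CPM at day 1 and was not called (adjusted p = 0.466). Crabp1 then stood at 291 ± 67.7 CPM at day 2. Dhrs3, which turns retinaldehyde back into retinol, had 7.12 and 4.58 CPM at day 0 and 57.0 and 71.3 CPM at day 1 (log2 fold change 3.45 ± 0.56, adjusted p = 0.0038). Lrat, which stores retinol as esters, had 0.0339 and 0.299 CPM at day 0 and 2.30 and 1.37 CPM at day 1 (log2 fold change 3.51 ± 0.80, adjusted p = 0.0159), with adjusted p = 0.0573 without day 0 replicate 1 and adjusted p = 0.0583 without day 1 replicate 1. Of the enzymes that make RA, Aldh1a2 had 2.64 and 1.58 CPM at day 0 and 7.41 and 6.21 CPM at day 1 (log2 fold change 1.68 ± 0.43, adjusted p = 0.0243), with adjusted p = 0.107 without day 0 replicate 2 and adjusted p = 0.072 without day 1 replicate 1. Rdh10, which makes retinaldehyde, had 18.98 and 25.2 CPM at day 0 and 23.2 and 17.0 CPM at day 1 and was not called. The list had 6 higher genes without day 1 replicate 1 at the least.

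Retinoid receptors and their cofactors had 5 of 14 higher and 1 lower, and the 3 RA receptor genes differed in their calls. Rarb (chromosome 14, 16430839 to 16819156) rose from 2.41 and 3.29 CPM to 84.5 and 80.2 CPM (log2 fold change 4.86 ± 0.35, adjusted p = 0.000122). Rarg, which codes for RAR-gamma, fell from 156 and 116 CPM to 46.6 and 66.3 CPM (log2 fold change -1.27 ± 0.22, adjusted p = 0.00537). Rara had 32.1 and 17.8 CPM at day 0 and 8.02 and 22.1 CPM at day 1, its libraries overlapped, and it was not called (log2 fold change -0.73 ± 0.44). The corepressor gene Nrip1, itself known as RA-induced, rose from 39.2 and 51.4 CPM to 233 and 198 CPM (log2 fold change 2.25 ± 0.20, adjusted p = 0.000282). The coactivator Ncoa2 rose from 64.8 and 57.4 CPM to 127.2 and 128.2 CPM (log2 fold change 1.06 ± 0.14, adjusted p = 0.00151). Nr6a1, an orphan receptor that represses Pou5f1, had 199 and 231 CPM at day 0 and 509 and 424 CPM at day 1 (log2 fold change 1.1198 ± 0.17, adjusted p = 0.00303). With a correction for GC content 5 of the list were lower in place of 1, and without day 0 replicate 2 or day 1 replicate 2, 2 were.

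Other genes known to answer RA in stem cells had 12 of 18 higher, 0 lower and a median of 2.24. Zfp703 (chromosome 8, 26977325 to 26981461), a transcriptional repressor, rose from 1.76 and 1.84 CPM to 89.2 and 99.0 CPM (log2 fold change 5.71 ± 0.24, adjusted p = 1.97e-05). Its day 1 libraries were both far above its day 0 libraries. Tshz1, a zinc finger factor, rose from 5.36 and 6.29 CPM to 96.8 and 129.5 CPM (log2 fold change 4.28 ± 0.34, adjusted p = 0.000173). Foxa1, a pioneer factor, rose from 0.678 and 1.07 CPM to 16.04 and 10.9 CPM (log2 fold change 3.96 ± 0.33, adjusted p = 0.000191). The nuclear receptors Nr2f1 and Nr2f2, known from the caudal nervous system, rose at day 1 and stood higher still at day 3. Nr2f1 had 0.712 and 1.11 CPM at day 0 and 3.49 and 5.34 CPM at day 1 (log2 fold change 2.29 ± 0.34, adjusted p = 0.0026) and reached 95.5 ± 24.6 CPM at day 3. Nr2f2 had 1.36 and 1.92 CPM at day 0 and 8.17 and 7.09 CPM at day 1 (log2 fold change 2.22 ± 0.23, adjusted p = 0.000562) and reached 85.1 ± 10.3 CPM. Plat, tissue plasminogen activator, rose from 10.3 and 6.63 CPM to 59.4 and 75.6 CPM (log2 fold change 2.99 ± 0.26, adjusted p = 0.000257). Without either day 3 library 1 gene of the list was lower. Genes that were not called include Cdx1, with 2.27 and 1.41 CPM at day 0 and 1.44 and 3.18 CPM at day 1, and Pdgfra, with 48.3 and 48.2 CPM at day 0 and 33.1 and 25.4 CPM at day 1 (adjusted p = 0.0724).

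**Figure D2:**
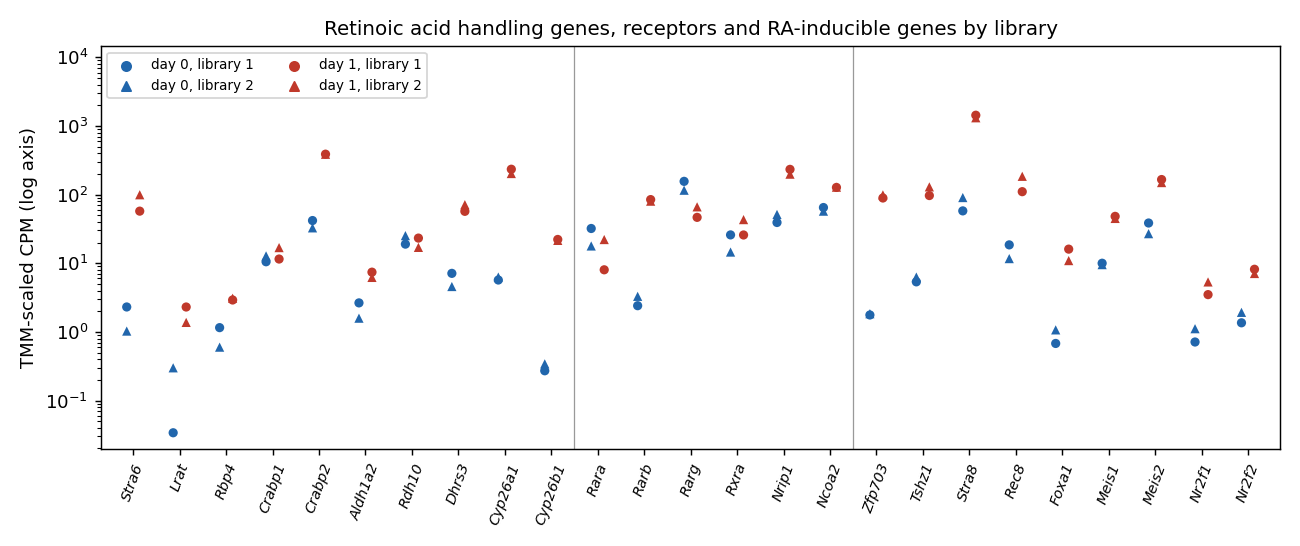
TMM-scaled CPM (log axis) of 25 genes in the 2 libraries of day 0 and the 2 of day 1. Left block, uptake, binding, synthesis and breakdown of RA; middle block, receptors and cofactors; right block, other RA-inducible genes. Both day 1 points of Cyp26a1, Rarb and Zfp703 are more than 10 times above their day 0 points, Rarg moves down and the points of Rara, Rdh10 and Rxra overlap between days.

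Stra8 and Rec8, meiosis genes that RA switches on in germ cells, rose at day 1, and most other genes of meiosis were not called. Stra8 had 57.9 and 90.5 CPM at day 0 and 1433 and 1315 CPM at day 1 (log2 fold change 4.21 ± 0.52, adjusted p = 0.00119), and stood at 168 ± 101 CPM at day 2 and 6.95 ± 4.17 CPM at day 3. Rec8, the meiotic cohesin subunit, had 18.5 and 11.7 CPM at day 0 and 110.3 and 185 CPM at day 1 (log2 fold change 3.29 ± 0.38, adjusted p = 0.000894). Of 20 meiosis and germ line genes tested, 4 were higher and 0 lower, with a median of -0.12. The synaptonemal complex gene Sycp3 had 16.9 and 27.0 CPM at day 0 and 15.97 and 10.99 CPM at day 1, the recombinase Dmc1 10.6 and 18.6 CPM at day 0 and 16.2 and 13.7 CPM at day 1 and the germ cell helicase Ddx4 28.0 and 42.7 CPM at day 0 and 40.6 and 30.4 CPM at day 1, and none of these 3 was called. Dmc1 and Ddx4 overlapped between days. The other 2 called genes, Sycp2 and Tex101, lost their calls in 4 and 6 of the 8 fits that left out 1 library, and the count was 2 without day 0 replicate 1, either day 1 library or day 2 replicate 1. Without day 0 replicate 1, 2 genes were lower.

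Hox genes rose in all 4 clusters, and the last paralog called differed between clusters. Of the tested genes of paralog groups 1 to 4, the 3′ end of the clusters, 11 of 11 were higher, with a median of 3.35. Of groups 5 to 13, 9 of 19 were higher and 0 lower, with a median of 1.05, and 8 more were too low to be tested. In the HoxA cluster Hoxa5, a paralog of the neck and upper trunk, had 7.52 and 4.45 CPM at day 0 and 43.7 and 39.4 CPM at day 1 (log2 fold change 2.79 ± 0.38, adjusted p = 0.00181). The next genes of that cluster were near the threshold or on its other side. Hoxa6 overlapped between days and Hoxa7 was called, while Hoxa9 had 1.83 and 1.198 CPM at day 0 and 0.576 and 0.655 CPM at day 1 (log2 fold change -1.30 ± 0.47, adjusted p = 0.0827) and Hoxa10 1.796 and 1.497 CPM at day 0 and 0.719 and 0.655 CPM at day 1 (log2 fold change -1.26 ± 0.45, adjusted p = 0.0761), both lower in each day 1 library and neither called.

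The HoxB cluster rose as far as Hoxb9. Hoxb1, the marker of the fourth rhombomere, had 4.10 and 3.17 CPM at day 0 and 50.5 and 52.6 CPM at day 1 (log2 fold change 3.82 ± 0.50, adjusted p = 0.00154). Hoxb2, a gene of the third to the fifth rhombomere, had 2.41 and 1.88 CPM at day 0 and 27.9 and 31.0 CPM at day 1 (log2 fold change 3.77 ± 0.27, adjusted p = 0.000122). Both rose more than 10-fold in each library. At the other end Hoxb8 had 0.339 and 0.727 CPM at day 0 and 8.17 and 11.1 CPM at day 1 (log2 fold change 4.197 ± 0.52, adjusted p = 0.00123). Hoxb9 had 1.36 and 2.99 CPM at day 0 and 44.6 and 32.9 CPM at day 1 (log2 fold change 4.17 ± 0.75, adjusted p = 0.00568). All 9 genes of the cluster from Hoxb1 to Hoxb9 were called, Hoxb6 from 3 or fewer counts at day 0 to 6.08 and 6.65 CPM, while Hoxb13, which lies apart, was not (log2 fold change 0.80 ± 0.88). By day 3 the trunk gene Hoxb9 and Hoxb1 were low again, while Hoxb2 and Hoxb4 were not. Hoxb1 was at 0.534 ± 0.443 CPM at day 3 and Hoxb9 at 1.68 ± 1.22 CPM, whereas Hoxb2 was at 27.1 ± 0.103 CPM and Hoxb4 at 25.8 ± 0.470 CPM. In HoxC, Hoxc4 had 0.237 and 0.428 CPM at day 0 and 6.87 and 7.96 CPM at day 1 (log2 fold change 4.49 ± 0.41, adjusted p = 0.000299). Hoxc5 had 0.508 and 0.342 CPM at day 0 and 10.9 and 10.7 CPM at day 1 (log2 fold change 4.63 ± 0.57, adjusted p = 0.0012), while Hoxc6 and Hoxc8 were not called. In HoxD, Hoxd3 had 0.0678 and 0.171 CPM at day 0 and 2.45 and 2.12 CPM at day 1 (log2 fold change 4.27 ± 0.39, adjusted p = 0.000284). Hoxd8 had 0.136 and 0.385 CPM at day 0 and 2.77 and 1.97 CPM at day 1 (log2 fold change 3.21 ± 0.61, adjusted p = 0.00747), while Hoxd9 was not called. Calls of Hoxd1 and Hoxa7 were lost in 3 and 6 of the 8 fits without 1 library.

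Genes for the proteins that bind DNA with Hox factors were expressed at day 0 already. Of 9 tested, 5 were higher and 0 lower. Meis1, whose protein binds DNA beside PBX and Hox proteins, had 9.999 and 9.54 CPM at day 0 and 48.2 and 44.9 CPM at day 1 (log2 fold change 2.25 ± 0.18, adjusted p = 0.000174). Meis2 had 38.5 and 26.9 CPM at day 0 and 166 and 149.6 CPM at day 1 (log2 fold change 2.27 ± 0.21, adjusted p = 0.000342). Pbx2 and Pknox2 were also called, and Pbx3, with 46.1 and 40.9 CPM at day 0 and 63.5 and 57.8 CPM at day 1, was not.

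**Figure D3:**
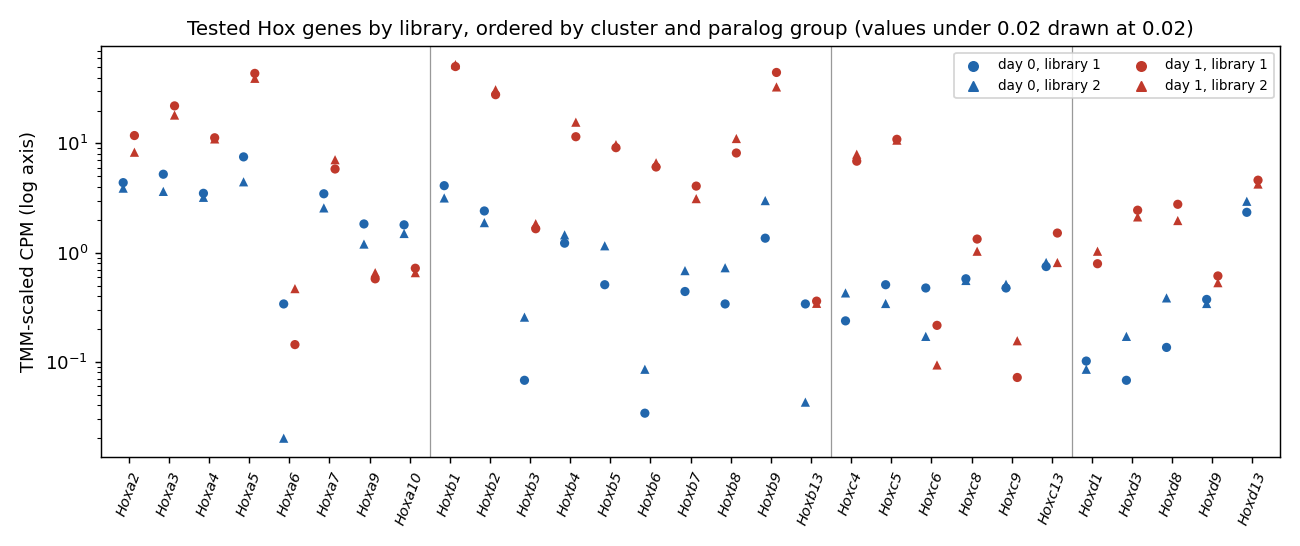
TMM-scaled CPM (log axis) of tested Hox genes in the 4 libraries, with vertical lines between the HoxA, HoxB, HoxC and HoxD clusters and genes in paralog order within each. Red day 1 points lie above blue day 0 points from Hoxa2 to Hoxa5, from Hoxb1 to Hoxb9 and at Hoxc4 and Hoxc5, and below them at Hoxa9, Hoxa10 and Hoxc9, which were not called.

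All 15 naive pluripotency genes tested were lower at day 1 (15 called, 8.91% of all genes were), with a median log2 fold change of -2.41. They fell by different amounts. Nanog, whose promoter is shown above, had 179.5 and 262 CPM at day 0 and 8.06 and 6.62 CPM at day 1 (log2 fold change -4.91 ± 0.31, adjusted p = 7.47e-05). Prdm14, which keeps DNA methylation low in naive cells, had 7.42 and 11.8 CPM at day 0 and 0.396 and 0.250 CPM at day 1 (log2 fold change -4.89 ± 0.52, adjusted p = 0.000621). Fgf4 had 108 and 141 CPM at day 0 and 4.32 and 3.87 CPM at day 1 (log2 fold change -4.92 ± 0.41, adjusted p = 0.000193). These and Nanog had the largest falls of the list. Klf5, a factor of self-renewal, had 109 and 127.03 CPM at day 0 and 23.2 and 27.0 CPM at day 1 (log2 fold change -2.23 ± 0.19, adjusted p = 0.000207). Zfp42, known as REX1, had 114 and 187 CPM at day 0 and 26.5 and 29.96 CPM at day 1 (log2 fold change -2.41 ± 0.26, adjusted p = 0.000688). The smallest fall by log2 fold change was that of Zfp57, which protects imprints and had 207 and 345 CPM at day 0 and 108 and 101 CPM at day 1 (log2 fold change -1.40 ± 0.23, adjusted p = 0.00424). Tfcp2l1, a transcription factor of the naive state, had 134 and 279 CPM at day 0 and 86.7 and 69.4 CPM at day 1 (log2 fold change -1.40 ± 0.33, adjusted p = 0.017), with adjusted p = 0.0843 without day 0 replicate 2 and adjusted p = 0.0605 without day 1 replicate 2. The count was at least 13 whichever library was left out.

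Genes of pluripotency in general were lower or not called. Of 16 tested, 0 were higher and 10 lower, and 6 without day 0 replicate 2 or day 1 replicate 2. L1td1, an RNA-binding protein gene, had 1237 and 1434 CPM at day 0 and 261 and 202 CPM at day 1 (log2 fold change -2.53 ± 0.18, adjusted p = 0.000129). Pou5f1, which codes for OCT4, had 536 and 332 CPM at day 0 and 55.1 and 109 CPM at day 1 (log2 fold change -2.41 ± 0.35, adjusted p = 0.00248), and both pairs of libraries differed by more than 1.5 times. Sox2, which neural progenitors share, had 151 and 223 CPM at day 0 and 118 and 102 CPM at day 1 (log2 fold change -0.77 ± 0.20, adjusted p = 0.0279), with adjusted p = 0.155 without day 0 replicate 2 and adjusted p = 0.103 without day 1 replicate 2. Lin28a, an RNA-binding protein gene of early cells, had 925 and 921 CPM at day 0 and 1172 and 1026 CPM at day 1, and Lin28b had 152 and 145 CPM at day 0 and 166 and 133 CPM at day 1, and neither was called. Rif1 was not called either, with 774 and 1111 CPM at day 0 and 922 and 631 CPM at day 1.

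Genes of LIF signaling moved in both directions. The transcription factor Stat3 had 103.9 and 97.9 CPM at day 0 and 35.7 and 48.8 CPM at day 1 (log2 fold change -1.25 ± 0.20, adjusted p = 0.00333). Its target and inhibitor Socs3 had 52.3 and 36.2 CPM at day 0 and 5.54 and 8.12 CPM at day 1 (log2 fold change -2.69 ± 0.33, adjusted p = 0.00113). Bcl3, an NF-kappa-B cofactor that LIF induces, had 14.3 and 9.79 CPM at day 0 and 0.144 and 0.468 CPM at day 1 (log2 fold change -5.25 ± 0.55, adjusted p = 0.000584). The kinase genes Jak1 and Jak2 rose, each day 1 library above each day 0 library, as in every gene called higher. Jak1, a kinase of the gp130 receptor, had 90.1 and 119 CPM at day 0 and 216 and 176 CPM at day 1 (log2 fold change 0.90 ± 0.18, adjusted p = 0.00846). Jak2, its relative, had 17.2 and 26.05 CPM at day 0 and 68.5 and 50.1 CPM at day 1 (log2 fold change 1.46 ± 0.23, adjusted p = 0.00341). The receptor genes Lifr, with 75.8 and 120.4 CPM at day 0 and 71.4 and 57.2 CPM at day 1, and Il6st, with 117 and 149 CPM at day 0 and 149.5 and 137 CPM at day 1, were not called. In all 2 of 13 were higher and 6 lower.

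Genes of the formative and primed epiblast, the states that follow the naive one in the embryo, were lower or not called. Of 16 tested, 0 were higher and 9 lower, with a median of -1.23. Fgf5 had 6.13 and 4.28 CPM at day 0 and 0.396 and 0.375 CPM at day 1 (log2 fold change -3.75 ± 0.55, adjusted p = 0.00237). Otx2, which also marks the forebrain, had 25.3 and 22.3 CPM at day 0 and 3.71 and 4.12 CPM at day 1 (log2 fold change -2.60 ± 0.40, adjusted p = 0.0031). Dnmt3b, the methyltransferase that rises in the epiblast, had 714 and 527 CPM at day 0 and 171 and 181 CPM at day 1 (log2 fold change -1.82 ± 0.18, adjusted p = 0.000376). All 3 fell by more than 3-fold at day 1. Fgf5 and Otx2 stayed under 1 CPM at days 2 and 3. Without day 0 replicate 1, 2 of the list were higher.

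Lefty2 and Lefty1, of Nodal signaling, were among the 12 falls listed above. Of 23 genes of the Nodal and TGF-beta list, 3 were higher and 12 lower, with 11 or 12 lower whichever library was left out and 1 higher without day 0 replicate 1. The ligand gene Nodal had 66.2 and 41.6 CPM at day 0 and 2.27 and 7.18 CPM at day 1 (log2 fold change -3.51 ± 0.54, adjusted p = 0.00294). Lefty2 (chromosome 1, 180893108 to 180899103), a feedback inhibitor of the ligand, had 126.3 and 156 CPM at day 0 and 0.540 and 0.187 CPM at day 1 (log2 fold change -8.62 ± 0.45, adjusted p = 2.96e-05). Lefty1, its neighbour and relative, had 89.9 and 95.8 CPM at day 0 and 0.899 and 0.593 CPM at day 1 (log2 fold change -6.96 ± 0.36, adjusted p = 2.96e-05). Both day 1 libraries were below 1 CPM for each Lefty gene. Tdgf1, the coreceptor, had 417 and 499.5 CPM at day 0 and 3.06 and 1.998 CPM at day 1 (log2 fold change -7.51 ± 0.34, adjusted p = 1.97e-05). Its pseudogene Tdgf1-ps1 had 214 and 244 CPM at day 0 and 0.468 and 0.999 CPM at day 1. The share of reads between these near copies was not tested. Smad7, an inhibitor of the receptors and a target of the pathway, had 33.7 and 32.7 CPM at day 0 and 3.96 and 5.03 CPM at day 1 (log2 fold change -2.88 ± 0.27, adjusted p = 0.000356). The transducer Smad3 rose from 38.5 and 31.2 CPM to 81.1 and 83.4 CPM (log2 fold change 1.24 ± 0.17, adjusted p = 0.00189), while Smad2 and the receptor Tgfbr1 lost their calls without 2 of the 8 libraries.

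BMP genes went both ways. Bmp4 had 25.3 and 24.5 CPM at day 0 and 1.58 and 3.496 CPM at day 1 (log2 fold change -3.28 ± 0.36, adjusted p = 0.000734). The ligand genes Bmp7 and Bmp2 rose. Bmp7 had 4.14 and 1.796 CPM at day 0 and 18.6 and 23.6 CPM at day 1 (log2 fold change 2.81 ± 0.38, adjusted p = 0.00169). Bmp2 had 1.39 and 1.15 CPM at day 0 and 4.82 and 3.84 CPM at day 1 (log2 fold change 1.76 ± 0.29, adjusted p = 0.00395). The 4 Id genes, targets of BMP that hold back differentiation, fell, Id4 with an adjusted p of 0.0458 and its call lost in 7 of the 8 fits without 1 library. Id1 had 16.8 and 15.5 CPM at day 0 and 0.576 and 1.19 CPM at day 1 (log2 fold change -4.18 ± 0.38, adjusted p = 0.000284), the largest fall of the 4. Id2 had 52.4 and 42.4 CPM at day 0 and 13.3 and 13.2 CPM at day 1 (log2 fold change -1.84 ± 0.26, adjusted p = 0.00197). Id3 had 6.64 and 4.36 CPM at day 0 and 0.791 and 2.59 CPM at day 1 (log2 fold change -1.69 ± 0.43, adjusted p = 0.0252), with the call lost in 3 of the 8 fits without 1 library and adjusted p up to 0.0972. The list had 3 of 18 higher and 5 lower, with 3 lower without day 0 replicate 1 or either day 3 library.

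Of 6 FGF ligand genes 5 fell, as did some feedback genes of ERK, while a receptor rose. Fgf8, Spry1, Spred1, Spred2 and Dusp4 were not called. Of 21 tested, 1 was higher and 12 lower. Besides Fgf4 and Fgf5, the ligand genes Fgf17, Fgf15 and Fgf3 fell, and Fgf3 lost its call in 4 of the 8 fits without 1 library. Fgf17 had 13.6 and 10.1 CPM at day 0 and 0.468 and 0.312 CPM at day 1 (log2 fold change -4.92 ± 0.40, adjusted p = 0.000191). Fgf15 had 10.8 and 11.5 CPM at day 0 and 0.216 and 0.468 CPM at day 1 (log2 fold change -4.99 ± 0.65, adjusted p = 0.00154). Etv4, a transcription factor induced by ERK, had 139 and 115 CPM at day 0 and 13.7 and 17.4 CPM at day 1 (log2 fold change -3.03 ± 0.27, adjusted p = 0.000259). Spry2, a feedback inhibitor, had 110.2 and 103.6 CPM at day 0 and 28.2 and 32.0 CPM at day 1 (log2 fold change -1.83 ± 0.17, adjusted p = 0.000299). Dusp6, the ERK phosphatase, moved less, with 198 and 179.5 CPM at day 0 and 98.2 and 94.1 CPM at day 1 (log2 fold change -0.97 ± 0.20, adjusted p = 0.00991). Fgfr2 rose from 36.3 and 29.9 CPM to 152 and 142 CPM (log2 fold change 2.15 ± 0.16, adjusted p = 0.000135). Fgfr1, with 117 and 82.5 CPM at day 0 and 119 and 163 CPM at day 1, was not called. Without either day 3 library 2 were higher.

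Wnt and Notch genes changed in both directions. The Wnt list had 2 of 22 higher (9.09%, against 12% of all genes) and 3 lower (13.6%, against 8.91%), and the feedback target Axin2 had 15.5 and 7.78 CPM at day 0 and 8.31 and 14.4 CPM at day 1 and was not called. Wnt3, a ligand of the primitive streak, had 9.32 and 4.15 CPM at day 0 and 0.360 and 0.375 CPM at day 1 (log2 fold change -4.18 ± 0.58, adjusted p = 0.0019). Nkd1, an inhibitor of the pathway, rose from 0.983 and 0.642 CPM to 4.64 and 3.71 CPM (log2 fold change 2.34 ± 0.31, adjusted p = 0.00161). The Notch list had 2 of 19 higher (10.5%) and 5 lower (26.3%), with 4 lower without day 0 replicate 2 and 2 or 3 without each of the other 7 libraries. The ligand Jag1 had 33.9 and 31.0 CPM at day 0 and 6.26 and 6.27 CPM at day 1 (log2 fold change -2.37 ± 0.19, adjusted p = 0.000171). The ligand Dll1 had 6.85 and 3.25 CPM at day 0 and 14.2 and 16.7 CPM at day 1 (log2 fold change 1.602 ± 0.31, adjusted p = 0.00742). Of the receptors Notch2 had 63.4 and 47.9 CPM at day 0 and 128.96 and 141 CPM at day 1 (log2 fold change 1.28 ± 0.20, adjusted p = 0.00336). Hes5, the target in neural progenitors, stood under 1 CPM in all 4 libraries.

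Of the 4 hedgehog feedback targets 2 rose. Hhip, which binds and blocks hedgehog ligands, had 0.339 and 0.642 CPM at day 0 and 9.17 and 7.09 CPM at day 1 (log2 fold change 4.07 ± 0.36, adjusted p = 0.000252). Ptch1, the receptor, had 28.2 and 26.05 CPM at day 0 and 73.8 and 103 CPM at day 1 (log2 fold change 1.71 ± 0.19, adjusted p = 0.000688). Gli1 had 6.58 and 3.46 CPM at day 0 and 5.50 and 9.61 CPM at day 1, its libraries overlapped between days, and it was not called. It stood at 76.8 ± 0.468 CPM at day 2. Of 16 receptors and mediators, 4 were higher and 0 lower. Over the 21 other settings from 2 to 8 were higher, with 7 under the GC correction and 2 with only the 4 libraries of days 0 and 1. The coreceptor Gas1 had 4.24 and 4.92 CPM at day 0 and 20.6 and 15.8 CPM at day 1 (log2 fold change 1.99 ± 0.33, adjusted p = 0.00417). Cdon had 53.8 and 68.1 CPM at day 0 and 157 and 138 CPM at day 1 (log2 fold change 1.27 ± 0.19, adjusted p = 0.00237). The transducer Smo had 67.2 and 42.2 CPM at day 0 and 76.8 and 104.1 CPM at day 1 (adjusted p = 0.0535) and was not called, and Shh, the ligand itself, had 0.102 and 0.171 CPM at day 0 and 0.432 and 0.843 CPM at day 1 and was not called.

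Ventral progenitor factors were low at day 1, including those that were called. Of 10 tested, 5 were higher and 0 lower, and 3 were higher without either day 0 library. Foxa2, the floor plate factor, had 1.59 and 2.01 CPM at day 0 and 8.71 and 9.21 CPM at day 1 (log2 fold change 2.32 ± 0.34, adjusted p = 0.0026). Olig2, a motor neuron progenitor factor with 1 count in each day 0 library, had 0.719 and 0.624 CPM and Nkx6-1 0.540 and 0.780 CPM at day 1, and each lost its call in 3 of the 8 fits without 1 library. By day 2 these 3 genes stood at 83.8 ± 30.2, 32.6 ± 0.755 and 64.6 ± 8.88 CPM. Of 16 dorsal and intermediate factors 2 were higher (12.5%, near the 12% of all genes), and 1 in 6 of the 8 fits without 1 library, namely without any 1 library of days 0, 1 and 2, with 1 lower without day 0 replicate 1. Pax6 had 5.59 and 5.73 CPM at day 0 and 54.1 and 53.4 CPM at day 1 (log2 fold change 3.25 ± 0.68, adjusted p = 0.0107).

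Neural progenitor genes moved in both directions. Their markers (Sox1, Pax6, Nes, Prom1), in the order given for the others, summed to 291 and 217 CPM at day 0 and 256 and 226 CPM at day 1. Nes made up 221 and 154 CPM of the sums at day 0 and 92.6 and 84.0 CPM at day 1. Sox1 and Pax6 were called higher and Nes lower. Of 18 genes of the list tested, 9 were higher and 3 lower. Zbtb16, a zinc finger factor of early neural cells, had 0.983 and 0.898 CPM at day 0 and 10.7 and 13.4 CPM at day 1 (log2 fold change 3.67 ± 0.24, adjusted p = 9.01e-05). Sox21, which neural progenitors express, had 1.63 and 2.27 CPM at day 0 and 11.9 and 11.9 CPM at day 1 (log2 fold change 2.62 ± 0.22, adjusted p = 0.000191). Sox1, the early marker of neural fate, had 19.01 and 17.0 CPM at day 0 and 46.1 and 36.2 CPM at day 1 (log2 fold change 1.19 ± 0.22, adjusted p = 0.00652). Cdh2, the neural cadherin, had 20.4 and 23.4 CPM at day 0 and 56.0 and 48.3 CPM at day 1 (log2 fold change 1.25 ± 0.15, adjusted p = 0.00112). These 4 rose in both libraries, as did every gene called higher. The filament genes Nes and Vim fell. Nes had 221 and 154 CPM at day 0 and 92.6 and 84.0 CPM at day 1 (log2 fold change -1.09 ± 0.19, adjusted p = 0.00533). Vim, which stem cells, progenitors and fibroblasts all express, had 283 and 325 CPM at day 0 and 123 and 134 CPM at day 1 (log2 fold change -1.24 ± 0.19, adjusted p = 0.00312).

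Of the neuronal genes 6 of 21 rose and 6 fell, and fewer rose whichever 1 library was left out. Over the 21 other settings from 0 to 8 rose and from 2 to 8 fell. With only the 4 libraries of days 0 and 1, 1 rose. Stmn2, a tubulin-binding protein gene of growing axons, had 293 and 327 CPM at day 0 and 67.4 and 60.0 CPM at day 1 (log2 fold change -2.28 ± 0.17, adjusted p = 0.000154). Ebf1, a factor of young neurons, had 13.1 and 11.2 CPM at day 0 and 1.91 and 1.53 CPM at day 1 (log2 fold change -2.82 ± 0.32, adjusted p = 0.000831). Isl1, a motor neuron factor, rose from 0.102 and 0.513 CPM to 1.76 and 1.90 CPM (log2 fold change 2.64 ± 0.50, adjusted p = 0.00728). Dcx and Elavl4, which with Stmn2 are the neuron markers summed above, rose at low levels. Dcx had 0.780 and 0.855 CPM at day 0 and 2.23 and 1.94 CPM at day 1 (log2 fold change 1.35 ± 0.28, adjusted p = 0.0104), with adjusted p = 0.0528 without day 0 replicate 1. Elavl4 had 3.49 and 4.53 CPM at day 0 and 7.05 and 5.81 CPM at day 1 (log2 fold change 0.68 ± 0.21, adjusted p = 0.0475), with the call lost in 8 of the 8 fits without 1 library and adjusted p up to 0.198.

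Regional genes were mixed and mostly low. Of 16 hindbrain and caudal genes 7 were higher and 4 lower, with 4 higher without either day 0 library or without day 1 replicate 2 and 2 lower without day 0 replicate 2, day 1 replicate 1 or either day 2 library. Gbx1 had 0.644 and 0.684 CPM at day 0 and 4.53 and 4.87 CPM at day 1 (log2 fold change 2.82 ± 0.50, adjusted p = 0.00545). Irx2, an Iroquois factor, had 1.56 and 1.63 CPM at day 0 and 7.05 and 6.27 CPM at day 1 (log2 fold change 2.06 ± 0.25, adjusted p = 0.00113). Egr2, the marker of the third and the fifth rhombomere, was under 2 CPM in all 4 libraries. Of 10 forebrain and midbrain genes 4 were higher and 2 lower, and 2 were higher without any 1 of the 4 libraries compared, with 1 lower in all 8 fits without a library. Emx2, a forebrain factor, had 0.136 and 0.128 CPM at day 0 and 2.09 and 1.90 CPM at day 1 (log2 fold change 3.87 ± 0.55, adjusted p = 0.00206), under 3 CPM in all libraries. Fezf2 had 0 counts in both day 0 libraries and 0.648 and 0.968 CPM at day 1. The forebrain marker Otx2 fell, with its values given above. Levels summed over all members of each list were lower at day 1. The forebrain and midbrain list summed to 34.0 and 29.6 CPM at day 0 and to 16.5 and 16.4 CPM at day 1. The hindbrain and caudal list summed to 135 and 156 CPM at day 0 and to 108 and 115 CPM at day 1.

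Most genes of cholesterol synthesis and uptake rose. Of 22 tested, 18 were higher and 0 lower, with a median log2 fold change of 1.17 against 0.01 for all genes, and both day 1 libraries were above both day 0 libraries for 19 of them (28.7% of all genes). From 14 to 18 were higher with 1 library left out, and from 14 to 22 over the 21 other settings. Hmgcs1 (chromosome 13, 119690379 to 119708260) had 535 and 584 CPM at day 0 and 1793 and 1463 CPM at day 1 (log2 fold change 1.54 ± 0.19, adjusted p = 0.00116). Enzymes of later steps rose too. Fdps, which makes farnesyl diphosphate, had 68.5 and 65.4 CPM at day 0 and 153 and 152 CPM at day 1 (log2 fold change 1.18 ± 0.15, adjusted p = 0.00141). Fdft1, which makes squalene from it, had 88.7 and 101 CPM at day 0 and 220.0 and 195 CPM at day 1 (log2 fold change 1.13 ± 0.16, adjusted p = 0.00203). Lss, which closes the sterol rings, had 121 and 87.0 CPM at day 0 and 261 and 325 CPM at day 1 (log2 fold change 1.49 ± 0.20, adjusted p = 0.00187). Dhcr7, an enzyme of the last step, had 84.6 and 67.3 CPM at day 0 and 159.5 and 199 CPM at day 1 (log2 fold change 1.24 ± 0.18, adjusted p = 0.0025). All 5 of these enzyme genes were higher in both day 1 libraries than in either day 0 library, as was every gene called higher.

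Genes that govern sterol supply differed. Insig1, which holds the SREBP factors back when sterols are plentiful, had 65.5 and 75.6 CPM at day 0 and 208 and 200.1 CPM at day 1 (log2 fold change 1.53 ± 0.16, adjusted p = 0.000532). Srebf2, the gene of the factor that drives the pathway, had 161 and 100.4 CPM at day 0 and 148 and 280.3 CPM at day 1 (log2 fold change 0.71 ± 0.31, adjusted p = 0.138), Pmvk 42.8 and 21.0 CPM at day 0 and 38.1 and 74.8 CPM at day 1 and Idi1 6.47 and 8.68 CPM at day 0 and 16.4 and 10.2 CPM at day 1. These 3 were not called, and the libraries of Srebf2 and Pmvk overlapped between days, as day 0 library 1 lay above day 1 library 1. Calls of Mvk, Sqle, Cyp51 and Ebp were lost in 6, 5, 3 and 8 of the 8 fits without 1 library. At day 2 the level was 1348 ± 188 CPM for Hmgcs1 and 119.9 ± 6.82 CPM for Insig1. The sources used here do not give the medium of each day.

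**Figure D4:**
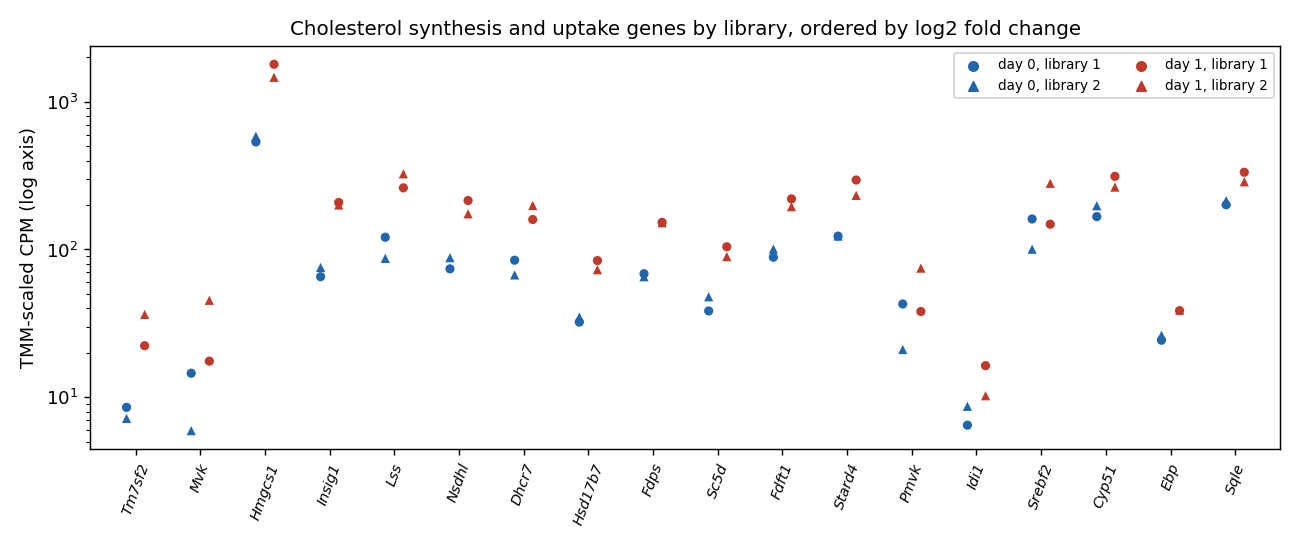
TMM-scaled CPM (log axis) of 18 cholesterol synthesis and uptake genes in the 4 libraries, ordered by log2 fold change from Tm7sf2 down. Red day 1 points lie above blue day 0 points in 16 genes, and overlap with them in Pmvk and Srebf2.

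Genes of sugar breakdown were more often lower than higher. Of 28 glycolysis and hypoxia genes 2 were higher and 11 lower, with a median of -0.78. The 2 higher genes, Slc2a1 and Vegfa, were 0 without day 0 replicate 2 or day 1 replicate 2 and 1 without day 2 replicate 1 or either day 3 library. Hk2, hexokinase, had 318 and 272 CPM at day 0 and 157 and 167 CPM at day 1 (log2 fold change -0.86 ± 0.15, adjusted p = 0.00545). Slc2a3, the glucose transporter GLUT3, had 1404 and 1458 CPM at day 0 and 727 and 703 CPM at day 1 (log2 fold change -1.001 ± 0.16, adjusted p = 0.00336). Ldha, lactate dehydrogenase, had 859 and 588 CPM at day 0 and 107 and 146 CPM at day 1 (log2 fold change -2.52 ± 0.27, adjusted p = 0.00067). The lactate exporter Slc16a3 had 54.1 and 19.4 CPM at day 0 and 3.96 and 8.86 CPM at day 1 (log2 fold change -2.52 ± 0.52, adjusted p = 0.0105). The first enzyme, a glucose transporter and both lactate genes were lower. Several genes of this list have pseudogenes that could share reads, and Gapdh stood at only 11.7 and 10.6 CPM at day 0. Of 39 nuclear genes of the respiratory chain 0 were higher and 4 lower (10.3%, near the 8.91% of all genes), from 0 to 2 lower with 1 library left out and 12 with the GC correction, with a median of -0.25. Of 18 serine synthesis and ATF4 target genes 2 were higher and 2 lower (11.1% each, near the shares of all genes), and Atf4 had 197 and 204 CPM at day 0 and 176 and 206 CPM at day 1.

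Genes of entry into the cell cycle changed in both directions. Mycn and Myc fell. Mycn had 108 and 82.0 CPM at day 0 and 17.4 and 17.0 CPM at day 1 (log2 fold change -2.47 ± 0.21, adjusted p = 0.000239). Myc had 69.0 and 45.9 CPM at day 0 and 10.8 and 11.6 CPM at day 1 (log2 fold change -2.35 ± 0.27, adjusted p = 0.000831). Ccnd1, cyclin D1, had 198 and 151 CPM at day 0 and 39.2 and 48.9 CPM at day 1 (log2 fold change -1.99 ± 0.20, adjusted p = 0.000504). Its relative Ccnd2 rose from 63.3 and 53.6 CPM to 144 and 122 CPM (log2 fold change 1.19 ± 0.21, adjusted p = 0.0052). Ccne1, cyclin E1, which is high through the stem cell cycle, had 452 and 486 CPM at day 0 and 211 and 207 CPM at day 1 (log2 fold change -1.16 ± 0.20, adjusted p = 0.00516). Of the inhibitors of cyclin-dependent kinases Cdkn1b had 38.5 and 44.6 CPM at day 0 and 83.6 and 75.7 CPM at day 1 (log2 fold change 0.94 ± 0.16, adjusted p = 0.00434). Cdkn2c, the inhibitor p18, had 1.63 and 1.28 CPM at day 0 and 5.83 and 4.74 CPM at day 1 (log2 fold change 1.85 ± 0.30, adjusted p = 0.00355). Cdkn1a, with 68.2 and 60.4 CPM at day 0 and 43.5 and 46.5 CPM at day 1, was not called. In all 5 of 17 genes of this group were higher and 6 lower. Of 23 S phase genes 0 were higher and 6 lower, with a median of -0.44, 3 lower without day 0 replicate 2 or day 1 replicate 1, and 15 with the GC correction. Chaf1b, a histone chaperone subunit, had 144 and 140.3 CPM at day 0 and 57.9 and 72.4 CPM at day 1 (log2 fold change -1.13 ± 0.17, adjusted p = 0.00265). Of 24 G2 and M phase genes 0 were higher and 0 lower by edgeR and by DESeq2, with 0 and 2 at an unadjusted p under 0.05, and with the GC correction 2 were higher and 4 lower. Cdk1 had 355 and 391 CPM at day 0 and 337 and 315 CPM at day 1 and Plk1 101 and 68.5 CPM at day 0 and 72.7 and 107 CPM at day 1. Kif20a, also of this list, was not called, and its log2 fold change ran from -5.16 to -0.309 over the other settings.

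Chromatin genes went both ways, against 12% higher and 8.91% lower of all genes. The shares higher and lower were 13.3% and 20% of the DNA methylation list and 16.7% each of the Polycomb list. They were 38.1% and 9.52% of the imprinted list. The higher shares of the DNA methylation and Polycomb lists were near that of all genes. Tet1, which oxidizes methylated cytosine, had 609.5 and 983 CPM at day 0 and 217 and 168 CPM at day 1 (log2 fold change -2.05 ± 0.24, adjusted p = 0.00103). Its relative Tet3 had 26.2 and 19.6 CPM at day 0 and 44.4 and 64.1 CPM at day 1 (log2 fold change 1.24 ± 0.22, adjusted p = 0.0054). The maintenance methyltransferase Dnmt1 had 513 and 473 CPM at day 0 and 372 and 447 CPM at day 1 and was not called. Of 15 genes of DNA methylation 2 were higher and 3 lower, and 5 were lower without either day 3 library. Of 24 Polycomb genes 4 were higher and 4 lower, and each count was 2 without day 0 replicate 2 or day 1 replicate 2, as was the higher count without any 1 library of days 2 and 3. Phc1 had 524 and 438 CPM at day 0 and 154 and 189 CPM at day 1 (log2 fold change -1.49 ± 0.17, adjusted p = 0.000769). Bmi1, a subunit of the same complex, rose from 27.1 and 32.4 CPM to 105 and 83.2 CPM (log2 fold change 1.66 ± 0.27, adjusted p = 0.00357). The catalytic subunit gene Ezh2, with 336 and 488 CPM at day 0 and 345 and 254 CPM at day 1, was not called. Imprinted genes had 8 of 21 higher and 2 lower, and 5 higher without day 0 replicate 2. The lower count was 0 or 1 without each of the libraries other than day 1 replicate 2. Igf2, a growth factor expressed from the paternal allele, had 56.9 and 64.2 CPM at day 0 and 197 and 193 CPM at day 1 (log2 fold change 1.68 ± 0.20, adjusted p = 0.00108). Its neighbour H19, expressed from the maternal allele, had 155 and 147 CPM at day 0 and 343 and 429 CPM at day 1 (log2 fold change 1.36 ± 0.24, adjusted p = 0.0054). Counts do not separate the alleles. The maternally expressed Igf2r, with 200.04 and 198 CPM at day 0 and 182 and 202 CPM at day 1, was not called.

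Of the cadherin genes Cdh1 and Cdh3 fell and Cdh2 rose. Cdh1, E-cadherin, had 747 and 629 CPM at day 0 and 349.9 and 358 CPM at day 1 (log2 fold change -0.96 ± 0.19, adjusted p = 0.00925), and the values of Cdh2, N-cadherin, are given above. Dsp, desmoplakin, rose from 85.1 and 93.9 CPM to 320.5 and 321 CPM (log2 fold change 1.84 ± 0.15, adjusted p = 0.000191). Of 4 repressors of Cdh1 on the list Zeb1 and Zeb2 rose, and Snai1 and Snai2 were not called. Zeb1 rose from 18.7 and 27.8 CPM to 67.4 and 55.8 CPM (log2 fold change 1.41 ± 0.21, adjusted p = 0.0026). Zeb2 rose from 22.3 and 27.4 CPM to 64.4 and 55.6 CPM (log2 fold change 1.27 ± 0.17, adjusted p = 0.00167). Grhl2, which keeps epithelial genes on, had 74.1 and 64.8 CPM at day 0 and 18.9 and 20.8 CPM at day 1 (log2 fold change -1.81 ± 0.23, adjusted p = 0.00141). The list had 4 of 25 higher and 6 lower. Eph receptors and ephrins had 5 of 20 higher and 3 lower, and 3 higher without day 0 replicate 2 or any 1 library of days 1 and 2. Epha2, a receptor high in stem cells, had 244 and 154 CPM at day 0 and 13.99 and 27.5 CPM at day 1 (log2 fold change -3.26 ± 0.35, adjusted p = 0.000621). Ephb2, a receptor of the nervous system among other tissues, rose from 17.8 and 14.2 CPM to 43.3 and 62.9 CPM (log2 fold change 1.73 ± 0.23, adjusted p = 0.00159).

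Lists of extraembryonic, mesoderm, trophoblast and neural crest genes had shares of calls near those of all genes, 12% higher and 8.91% lower. The shares higher and lower were 16.7% and 4.17% of the extraembryonic endoderm list, 16.7% and 8.33% of the mesoderm and endoderm list, 14.3% and 7.14% of the trophoblast list and 12.5% each of the neural crest list, while 44.4% of the fibroblast list were lower. Of 24 extraembryonic endoderm genes 4 were higher, among them Lrp2, and Foxa2 and Plat, which are on other lists too, and 1 lower, and 2 higher without either day 0 library or day 2 replicate 1. Gata6 had 18.8 and 17.4 CPM at day 0 and 12.01 and 12.98 CPM at day 1 and Sox17 3.97 and 3.17 CPM at day 0 and 1.40 and 2.81 CPM at day 1, and neither was called. The lower gene, Gata4, lost its call in 5 of the 8 fits without 1 library, and 3 genes were lower without either day 3 library. Of 12 mesoderm and endoderm genes 2 were higher and 1 lower. T, brachyury, had 15.6 and 6.50 CPM at day 0 and 0.0360 and 0.531 CPM at day 1 (log2 fold change -5.22 ± 0.83, adjusted p = 0.00351). Meox1, a somite factor, rose from 4.47 and 3.68 CPM to 31.6 and 31.5 CPM (log2 fold change 2.95 ± 0.42, adjusted p = 0.00223). The other higher gene, Foxc1, lost its call in 4 of the 8 fits, and 2 genes were lower without either day 3 library. Of 14 trophoblast and surface ectoderm genes 2 were higher and 1 lower, and of these Plac1, with 0.847 and 1.198 CPM at day 0 and 6.26 and 6.06 CPM at day 1 (log2 fold change 2.60 ± 0.30, adjusted p = 0.000863), kept its call whichever library was left out while Krt7 lost its in 5 and Grhl3 in 2 of the 8 fits. Of 8 neural crest genes Sox9 rose, from 0.339 and 0.556 CPM to 3.85 and 4.03 CPM (log2 fold change 3.15 ± 0.39, adjusted p = 0.00121). Foxd3 fell, with 7.49 and 3.85 CPM at day 0 and 0.144 and 0.0624 CPM at day 1 (log2 fold change -5.76 ± 0.74, adjusted p = 0.00141), and 2 were higher without day 0 replicate 2. Of 9 fibroblast genes 4 were lower and 0 higher, with 2 lower without day 0 replicate 2 or day 1 replicate 1, and Acta2, smooth muscle actin, had 55.6 and 66.6 CPM at day 0 and 5.25 and 7.49 CPM at day 1 (log2 fold change -3.26 ± 0.26, adjusted p = 0.000171).

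Genes of the rare state that resembles the 2-cell embryo gave no call by edgeR, with 0 higher and 0 lower of 15. At an unadjusted p under 0.05, 1 was higher and 0 lower, as with DESeq2 and without either day 3 library. Zscan4d had 14.7 and 17.8 CPM at day 0 and 19.9 and 19.1 CPM at day 1, and members of this family share sequence, so their split is uncertain. Immediate early genes had 1 of 15 higher and 6 lower, with 3 lower without day 1 replicate 1 or either day 3 library. Zfp36, which speeds decay of growth factor mRNAs, had 15.998 and 27.5 CPM at day 0 and 2.88 and 2.28 CPM at day 1 (log2 fold change -3.07 ± 0.39, adjusted p = 0.00132). Nr4a1, an orphan receptor of early response, had 24.2 and 19.03 CPM at day 0 and 3.60 and 6.40 CPM at day 1 (log2 fold change -2.11 ± 0.35, adjusted p = 0.00395). Atf3 rose from 11.2 and 12.1 CPM to 33.7 and 37.7 CPM (log2 fold change 1.62 ± 0.21, adjusted p = 0.00141). Egr1 and Fos differed more than 3-fold between the day 0 libraries, with 36.4 and 140.2 and 1.97 and 16.04 CPM. Of 17 p53 targets 0 were higher and 3 lower, led by Pmaip1, with 108 and 109 CPM at day 0 and 38.5 and 29.2 CPM at day 1 (log2 fold change -1.68 ± 0.19, adjusted p = 0.000782), while Mdm2, with 248.8 and 278 CPM at day 0 and 261 and 215 CPM at day 1, was not called. Of 15 interferon genes 2 were higher and 4 lower, with 2 lower without day 0 replicate 1, and the higher count was 0 without day 0 replicate 1 or 2, day 1 replicate 2 or either day 2 library and 1 without either day 3 library. Ddx58, the RNA sensor RIG-I, had 38.9 and 61.2 CPM at day 0 and 15.0 and 12.1 CPM at day 1 (log2 fold change -1.89 ± 0.29, adjusted p = 0.00304).

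A group of genes named here after their values were seen was lower at day 1 than both at day 0 and at day 2. The 12 of them shown come from the lists above. Id1, whose day 0 and day 1 values are above, stood at 28.0 ± 5.43 CPM at day 2. Id3 stood at 101 ± 17.9 CPM at day 2, Jag1 at 52.9 ± 6.87 CPM and Fgf15 at 44.6 ± 4.69 CPM. Fst, a secreted binder of activin and BMP, fell from 31.1 and 22.5 CPM to 3.89 and 4.46 CPM at day 1 (log2 fold change -2.68 ± 0.27, adjusted p = 0.000465) and stood at 42.9 ± 11.5 CPM at day 2. Each of these was below its day 0 and day 2 libraries in both day 1 libraries, which follows from how they were chosen. How many of all genes tested do the same was not counted, but 26.8% of them had both day 1 libraries below both day 0 libraries. Mycn returned to 93.1 ± 0.234 CPM at day 2 and Ccnd1 to 199.5 ± 32.3 CPM, near their day 0 levels. Nes and Vim stood at 314 ± 18.5 and 671 ± 75.9 CPM at day 2 and went on to 588 ± 46.7 and 1264 ± 272 CPM at day 3. Acta2 stood at 87.1 ± 20.5 CPM at day 2 and 275 ± 47.7 CPM at day 3, Bmp4 at 13.4 ± 2.50 CPM at day 2 and Id2 at 134 ± 8.48 CPM. The comparison of day 2 with day 1 shares the day 1 libraries with the one described here, so the 2 are not independent.

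**Figure D5:**
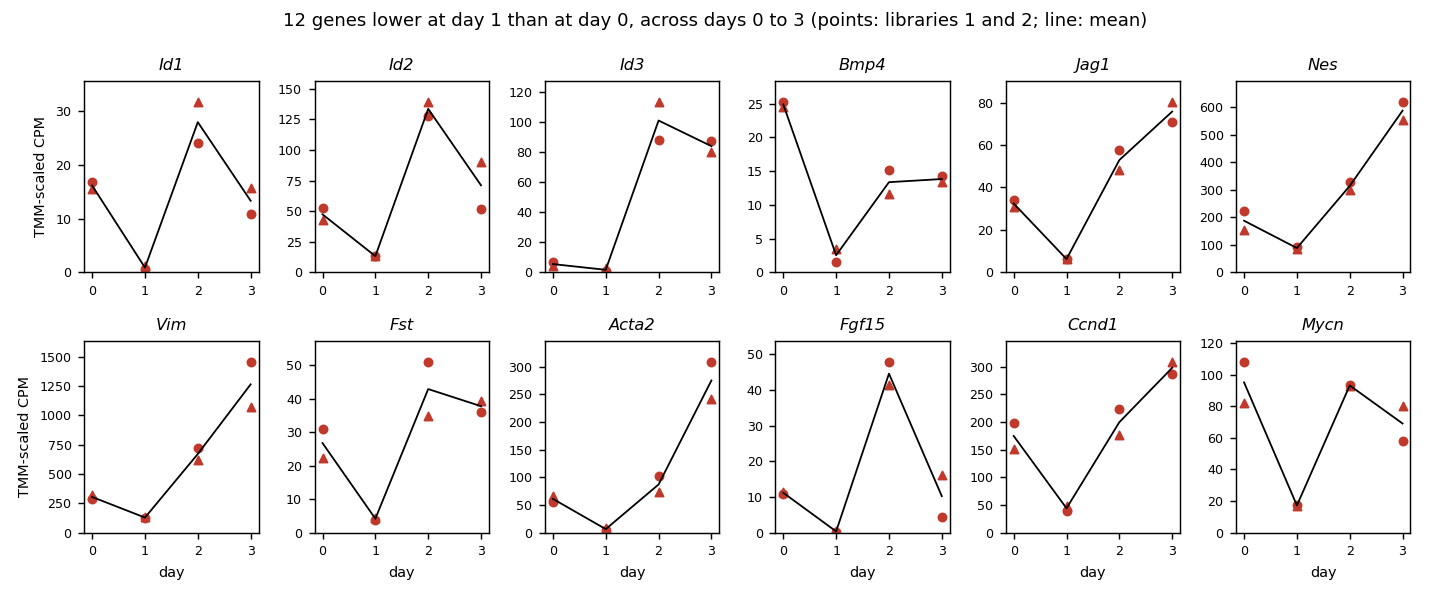
TMM-scaled CPM of 12 genes on a linear axis from 0 (vertical) in the 2 libraries of each of days 0, 1, 2 and 3 (circles library 1, triangles library 2), with the mean as a line. Each gene is lowest at day 1, where Id1 lies between 0.576 and 1.19 CPM and Mycn at 17.4 and 16.98 CPM, and both day 2 points are higher again.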

How the data were processed

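Polyadenylated RNA was sequenced by the authors after ZymoPure extraction and Illumina TruSeq preparation, per the labels' protocols. The submitters' processing notes list TopHat2 2.0.4, Cufflinks 2.1.1, limma and HTSeq 0.6.1, besides CASAVA and bcl2fastq 1.8.3, and the builds mm10 and GRCm38, with no roles. Neither the gene annotation nor the strand used in counting is given in these sources, so near-identical copies and overlapping or antisense genes are uncertain. The deposited table of expected counts, 38093 genes with whole values and 104 with fractions, was rounded. The deposited log2 (voom) values and the authors' FPKM values served in alternatives only.

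Counts of the 8 unsorted libraries were fitted together in edgeR 4.0.16 (R 4.3.3) with TMM scaling, filterByExpr with a minimum count of 10 and the quasi-likelihood F test of day 1 against day 0, so that all 4 days share one estimate of the spread. The SE is the log2 fold change over the root of F. The log2 difference between the 2 libraries of a day had an SD over genes of 0.68 at day 0 and 0.65 at day 1. A level at or under 3 counts was treated as the floor, which covers counting error only. Alternatives were RLE factors, no filter, DESeq2 1.42.0, other sets of libraries, a block for the replicate number, an offset from a lowess of each library on GC content (span 0.3), limma 3.58.1 on log2(FPKM + 1), log2(FPKM + 0.1) and voom values, an absolute log2 fold change of at least 1 and leaving out each library. Fits were tested on simulated data.

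Named genes are the 12 largest changes each way at 5 CPM or more with no overlap between days, passing over genes whose symbol is just a number for a clone, locus or gene prediction, a fixed panel, and up to 5 called and 3 other members of each list. Further genes (those lower at day 1 than at days 0 and 2, and some list members) and the sterol motif were chosen after values were seen. The members and lists were chosen with earlier results of these data known. Gene positions are from GENCODE on GRCm38, and promoters from RefSeq on GRCm38.p6. Some list members are counted but not reported by name or drawn, and others were not analysed here.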

Additional observations from a re-analysis of the deposited data

How the results depend on the processing

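Against 2015 genes higher and 1498 lower, a fit of the 4 libraries of days 0 and 1 alone called 923 and 619. The lower count alone moved by more than 1.5 times with the GC correction (2869), on log2(FPKM + 1) (760), log2(FPKM + 0.1) (690), log2(FPKM + 1) without a filter (795) and with an absolute log2 fold change of at least 1 (797). Limma on the deposited voom values called 2677 higher and 1049 lower. The cause of these shifts was not tested. Leaving out 1 library gave 1301 to 1715 genes higher and 879 to 1303 lower. RLE factors, no filter, DESeq2 and all 11 libraries kept both counts within 1.5 times.

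The labels do not say whether same-numbered libraries belong together. Deviations of same-numbered libraries of days 0 and 1 correlated across genes with r = -0.45, and other pairs of days with r from -0.23 to 0.18. These correlations cannot show whether libraries were paired, as libraries also differed along GC content, in opposite directions at days 0 and 1. With the replicate block, 1498 genes were higher and 977 lower, and with the GC correction and the replicate block 2754 and 2619. A crossed pairing of the 4 libraries, added after seeing the data, gave 4249 and 3938. Of 315 named or listed genes that were called, 210 were called in every fit without 1 library that tested them. Of the 315, 156 were called under every one of the 21 other settings that tested them, and 0 changed direction with a call. Some genes were not tested under all of the 21, and the crossed pairing is not among these settings. With 2 libraries a day the spread limits every value here, and genes at a few counts at day 0 have no bounded fold change.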
